A study of Mus musculus with 18 samples.

Results

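From the N-glycan branching pathway, 10 genes were followed in retinas of BALB/cJ mice, an albino wild-type strain (genotype wt): Mgat1, Mgat2, Mgat3, Mgat4a, Mgat4b, Mgat5, Mgat5b, B4galt1, St6gal1 and Man2a1. They were taken by symbol from the deposited count tables, which list 23420 gene symbols, and all 10 were found. Each of them also passed the filter on low counts that kept 15196 genes for testing. The mice formed 3 groups of 3. Naïve mice are labelled as without light and without treatment, and whether they were given an injection is not stated. Vehicle-treated mice were exposed to white light of 15000 lux for 1 h and were injected with DMSO. TD139-treated mice received the same light and TD139, a small-molecule galectin-3 inhibitor, at 15 mg/kg. Injections were daily and intraperitoneal from the day before light, and the retinas were taken 4 days after light. Mice were kept in the dark and their pupils were dilated before light. A naïve mouse thus differed from a vehicle-treated mouse in light and DMSO, and possibly in the injection, the dark adaptation and the eye drops, and these cannot be told apart. The words "after light" below stand for all of them together.

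N-glycans are sugar trees that are attached to asparagine residues of secreted and membrane proteins in the endoplasmic reticulum (ER) and remodelled in the Golgi. The product of Mgat1 adds the first N-acetylglucosamine (GlcNAc) of the complex type, the α-mannosidases II Man2a1 and Man2a2 then trim mannose, and the products of Mgat2, Mgat4a, Mgat4b and Mgat5 each start a further branch, whereas that of Mgat3 adds a bisecting GlcNAc that hinders further branching. B4GALT1 caps branches with galactose to form N-acetyllactosamine, the unit that galectins bind, and ST6GAL1 adds an α2,6-linked sialic acid that lowers the binding of several galectins. Branched glycans on glial and photoreceptor proteins are in this way potential ligands of galectin-3, the product of Lgals3.

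Whole-retina poly(A) RNA was read in 2 flow cell runs per mouse, which were summed. Between 26171887 and 30201517 reads fell on genes in a mouse. The retinal label was checked with rod photoreceptor markers, whose summed level was 41176 to 80573 CPM (read counts scaled to library size with TMM factors) over all mice. Lgals3 itself rose by 2.62 on the log2 scale from naïve to vehicle-treated mice (SE 0.52, adjusted p = 0.0289), and its log2 fold change under TD139 against vehicle was −3.03 (SE 0.53, adjusted p = 0.00727). The tissue was sequenced in bulk, so fewer cells of a type and less RNA per cell cannot be told apart for any gene below.

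The promoters of 4 of the 10 genes are shown, since Mgat1 and B4galt1 fell together after light, Man2a1 rose after light and Mgat5 rose under TD139. Each is the 300-base RefSeq window on GRCm38.p6 around a transcript start, most of it upstream, written 5′ to 3′ on the strand of the gene. Capitals mark matches to the motifs that were searched.
Mgat1, chr11:49243941-49244240, plus strand: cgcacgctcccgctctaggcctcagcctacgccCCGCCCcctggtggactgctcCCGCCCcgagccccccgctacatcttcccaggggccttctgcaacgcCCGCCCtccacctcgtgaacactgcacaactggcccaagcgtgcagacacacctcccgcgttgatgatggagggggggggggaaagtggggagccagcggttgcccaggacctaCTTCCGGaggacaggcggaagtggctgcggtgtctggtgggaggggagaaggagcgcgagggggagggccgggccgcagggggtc
B4galt1, chr4:40853935-40854234, minus strand: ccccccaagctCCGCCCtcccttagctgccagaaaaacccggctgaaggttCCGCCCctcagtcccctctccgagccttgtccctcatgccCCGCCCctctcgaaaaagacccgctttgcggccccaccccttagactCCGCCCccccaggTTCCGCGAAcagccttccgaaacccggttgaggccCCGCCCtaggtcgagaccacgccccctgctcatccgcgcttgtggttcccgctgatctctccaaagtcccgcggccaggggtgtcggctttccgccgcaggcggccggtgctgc
Man2a1, chr17:64601399-64601698, plus strand: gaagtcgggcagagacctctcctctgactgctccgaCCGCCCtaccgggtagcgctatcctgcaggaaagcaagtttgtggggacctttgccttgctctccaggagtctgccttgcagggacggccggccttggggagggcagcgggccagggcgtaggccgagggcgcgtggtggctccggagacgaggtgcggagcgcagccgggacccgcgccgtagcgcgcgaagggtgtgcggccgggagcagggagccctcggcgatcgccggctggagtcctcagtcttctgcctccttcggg
Mgat5, chr1:127204736-127205035, plus strand: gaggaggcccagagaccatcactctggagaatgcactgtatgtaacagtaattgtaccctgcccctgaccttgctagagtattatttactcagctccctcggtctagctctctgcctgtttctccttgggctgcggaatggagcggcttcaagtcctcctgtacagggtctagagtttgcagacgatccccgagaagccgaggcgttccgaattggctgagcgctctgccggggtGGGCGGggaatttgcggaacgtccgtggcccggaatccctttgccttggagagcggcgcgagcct

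On both strands, 5 motifs were searched, namely GGGCGG (the GC box), CCGGAAG (an ETS core), TTCNNNGAA (a STAT element), TGANTCA (AP-1) and CACGTG (an E-box). The GC box was found 3 times in the Mgat1 window, 5 times in that of B4galt1 and once in each of Man2a1 and Mgat5, and 35.7% of 32851 RefSeq promoter windows of that length hold it. An ETS core was present in the Mgat1 window (8.86% of all windows) and a STAT element in that of B4galt1 (8.3% of all windows). No match to TGANTCA or CACGTG was in these 4 windows, against 7.81% and 7.15% of all. Promoters were listed for 8 of the 10 genes. Of the remaining genes with a window, Mgat2 held 3 GC boxes (at overlapping positions) and a STAT element, Mgat4a held 2 GC boxes, St6gal1 held 1 and Mgat5b none. The 8 windows were 48 to 74.3% G and C. Where several starts were listed, only the window at the most upstream was searched (3 starts each for Mgat1 and St6gal1, 2 for Mgat4a). The gene start of Man2a1 in GENCODE M21 (17:64600736) lies before its window.

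The order of the genes was first taken from levels per length (CPM per kilobase of the longest GENCODE M21 coding transcript), since longer transcripts give more reads. In naïve retina Mgat1 was highest at 65.1 ± 0.600 CPM per kb (SD, n = 3 mice), followed by B4galt1 at 28.3. Mgat3, Mgat4b and Mgat2 came next with 16.0, 13.4 and 11.1 CPM per kb, and neighbours among these 3 overlapped between mice. Mgat5b stood at 6.35 CPM per kb, above Mgat4a at 2.75, St6gal1 at 2.34 and Mgat5 at 1.42, and neighbours among these last 3 overlapped. Man2a1 was lowest at 0.536 CPM per kb.
Mgat1 and B4galt1 were thus read most per length and Man2a1 least. In vehicle-treated mice the order of the 10 genes was the same, but B4galt1 (18.7 CPM per kb), Mgat3 (17.4) and Mgat4b (17.3) now overlapped. In TD139-treated mice Mgat5 (3.31 CPM per kb) stood above St6gal1 (2.53) without overlap and overlapped with Mgat4a (4.00).

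**Figure D1:**
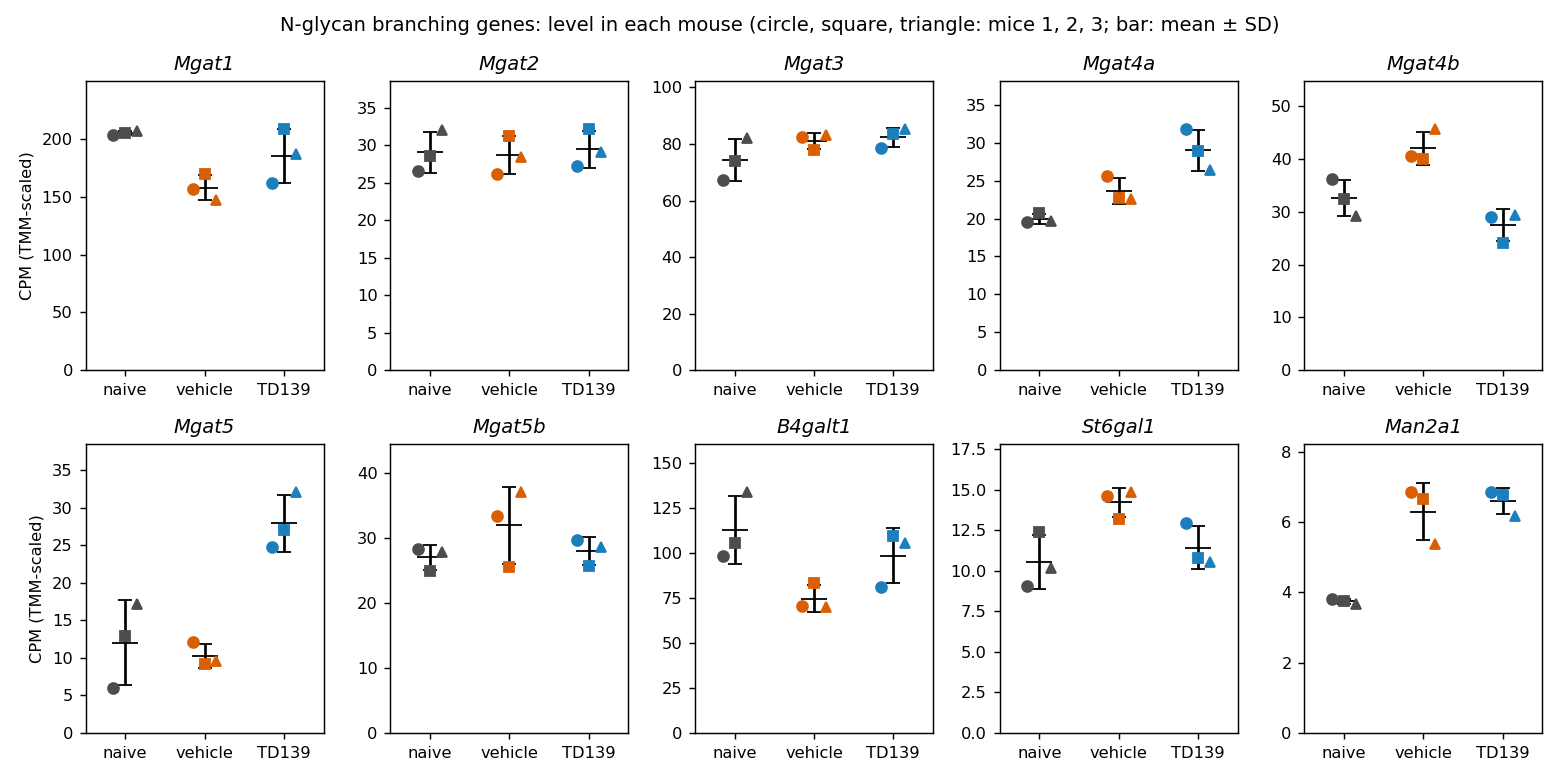
Level of each of the 10 genes (y axis, CPM from 0 on a linear scale, a different scale in each panel) in the naïve, vehicle-treated and TD139-treated mice; circles, squares and triangles are mice 1, 2 and 3 of a group, and bars are the mean ± SD of 3 mice. Mgat5 of the TD139-treated mice (24.7 to 32.1 CPM) lies above all other mice, and Man2a1 of the naïve mice (3.67 to 3.80 CPM) below all others.

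The first comparison, vehicle-treated against naïve mice, addresses how these genes differ in light-exposed, vehicle-injected retinas. Man2a1 rose, whereas Mgat1 and B4galt1 fell, and the other 7 genes did not pass the test. Called genes are those with an adjusted p-value under 0.05 in edgeR's quasi-likelihood test over all 15196 genes. The 3 called genes are 30% of the 10, while 7.8% of all tested genes were called (4.91% higher and 2.89% lower). None also passed the study's own threshold of a log2 fold change of 2 or more in size, which 1.24% of all tested genes did. The median log2 fold change was 0.18 over the 10 genes and −0.00 over all tested genes.

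Mgat1 encodes the GlcNAc-transferase on which all complex and hybrid N-glycans depend. Its level was 203, 205 and 207 CPM in naïve mice 1 to 3 and 156, 169 and 147 CPM in the vehicle-treated mice. All vehicle-treated mice were below all naïve mice. The log2 fold change was −0.38 (SE 0.10, adjusted p = 0.0463), or 1.30-fold lower.
B4galt1 encodes the galactosyltransferase that completes N-acetyllactosamine. It was at 98.2, 106 and 134 CPM in naïve mice, compared with 70.2, 83.3 and 70.1 CPM after light and vehicle. These groups did not overlap either. B4galt1 was 1.51-fold lower, with a log2 fold change of −0.60 (SE 0.14, adjusted p = 0.0343).
Man2a1, one of a pair of α-mannosidase II genes, moved the opposite way. Levels of 3.80, 3.77 and 3.67 CPM were measured in naïve mice, against 6.86, 6.68 and 5.38 CPM after light and vehicle. Each vehicle-treated mouse was above each naïve mouse. The rise was 1.68-fold, or 0.75 on the log2 scale (SE 0.18, adjusted p = 0.0300).

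In 10 alternative settings, listed with the processing below, Mgat1 was called in 5 (adjusted p of up to 0.0778 over all 10). Man2a1 was called in 8 (up to 0.0780) and B4galt1 in all 10. These 3 calls changed when single mice were left out. Mgat1 lost its call when any naïve mouse, any vehicle-treated mouse or TD139-treated mouse 3 was left out (adjusted p of 0.0528 to 0.142), B4galt1 when any naïve mouse or vehicle-treated mouse 1 or 3 was left out (0.0568 to 0.113), and Man2a1 when any naïve or vehicle-treated mouse was left out (0.0625 to 0.0966). The direction was the same in every one of these fits. The whole table held 1185 called genes with all mice, and 91, 1 and 217 without naïve mouse 1, 2 or 3. It held 249, 973 and 84 without vehicle-treated mouse 1, 2 or 3, and 901 without TD139-treated mouse 3.

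Of the second α-mannosidase II, Man2a2, far more RNA was present, and it fell where Man2a1 rose. Per length, Man2a2 stood at 127 ± 5.06 CPM per kb in naïve mice (SD, n = 3) and Man2a1 at 0.536. Man2a2 was at 798, 826 and 864 CPM in naïve and 637, 616 and 554 CPM in vehicle-treated mice, again without overlap. Its log2 fold change was −0.46 (SE 0.11, adjusted p = 0.0329), a call that was lost when any naïve or vehicle-treated mouse was left out (adjusted p of 0.0541 to 0.108). The called genes of the whole table in those fits are given above.

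None of Mgat2, Mgat4a, Mgat4b and Mgat5, whose products start the further branches, was called after light. Mgat4b, which starts a branch on the α1,3 arm, was at 36.2, 32.4 and 29.2 CPM in naïve and 40.6, 40.0 and 45.7 CPM in vehicle-treated mice. Those groups did not overlap, with a log2 fold change of 0.37 (SE 0.12, adjusted p = 0.0789). Its paralogue Mgat4a was at 19.6 to 20.7 CPM against 22.5 to 25.6 CPM (0.24, SE 0.11, adjusted p = 0.189), likewise without overlap.
Mgat5, whose product starts the β1,6 branch on which the longest galectin-binding chains are built, spread widely in naïve mice. Levels of 5.96, 12.9 and 17.2 CPM were measured there and 12.1, 9.18 and 9.54 CPM in vehicle-treated mice. The low value belongs to naïve mouse 1. The groups overlapped, at a log2 fold change of −0.23 (SE 0.31, adjusted p = 0.669) that turned to 0.13 without naïve mouse 3 (adjusted p = 0.822). Without naïve mouse 1 it was −0.54 (SE 0.19, adjusted p = 0.109).
St6gal1 was at 9.07, 12.4 and 10.2 CPM in naïve and 14.6, 13.2 and 14.9 CPM in vehicle-treated mice. Each vehicle-treated value exceeded each naïve one, while the test was not passed (0.43, SE 0.16, adjusted p = 0.105). Mgat2 (26.5 to 32.0 against 26.2 to 31.3 CPM), the bisecting gene Mgat3 (67.3 to 82.2 against 77.9 to 83.1 CPM) and Mgat5b, a relative of Mgat5 that also acts on O-mannose glycans (24.9 to 28.4 against 25.5 to 37.1 CPM), overlapped between groups. In all, the mice of both groups did not overlap for 6 of the 10 genes, against 33.3% of all tested genes.

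Markers of cell types moved in the same comparison. Of 8 rod markers, 6 were lower, with a summed level of 70594 to 80573 CPM in naïve and 41176 to 57181 CPM in vehicle-treated mice. Of 6 Müller glia markers, 4 were higher (4551 to 5425 against 6875 to 7442 CPM), as were 4 of 5 reactive glia markers (330 to 484 against 1525 to 2561 CPM) and 6 of 11 microglia and macrophage markers (61.0 to 68.5 against 285 to 539 CPM). None of the 11 was at or under 3 counts in all mice. Their part in the changes of Mgat1, B4galt1 and Man2a1 was not tested. No cone, bipolar, ganglion and amacrine, endothelial, retinal pigment epithelium (RPE) or blood marker was called, and 4 of the 7 blood and lymphocyte markers found were at or under 3 counts in every mouse.

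**Figure D2:**
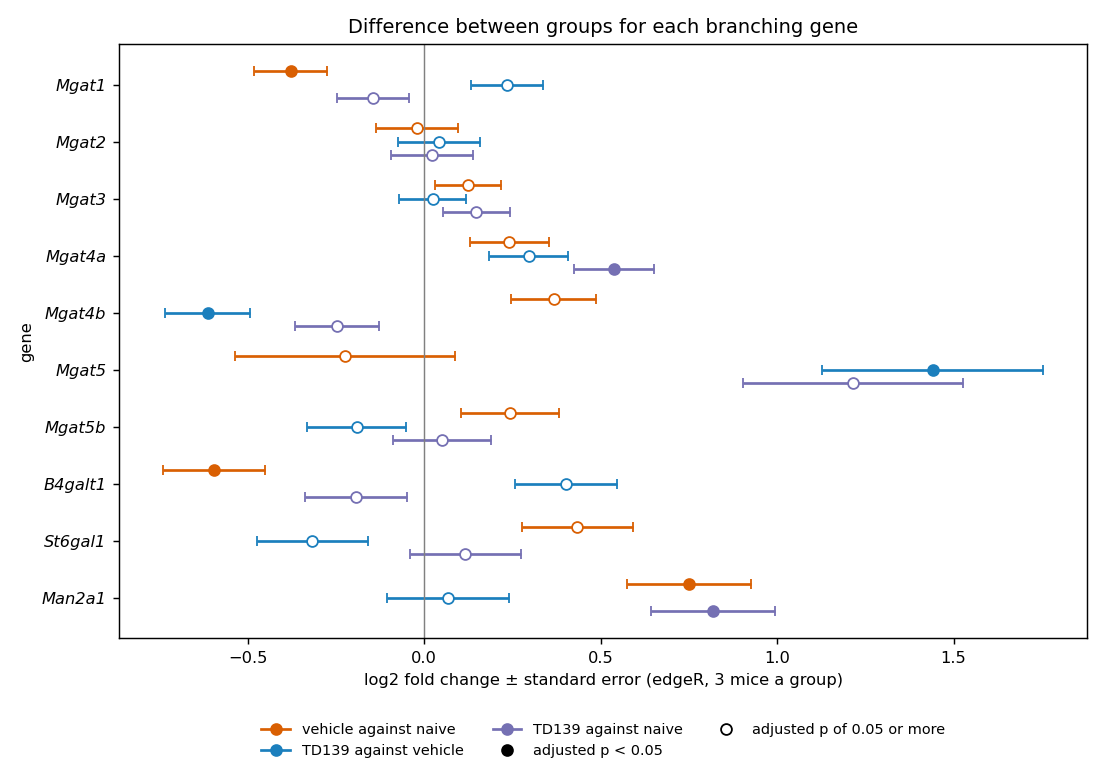
Log2 fold change ± standard error (x axis) of each gene (y axis) in the 3 comparisons, from edgeR with 3 mice a group; filled circles have an adjusted p under 0.05 and open circles do not. The largest difference is that of Mgat5 under TD139 against vehicle (1.44), and Mgat2 lies near 0 in all comparisons.

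The second comparison, TD139-treated against vehicle-treated mice, addresses the effect of the inhibitor in light-exposed retinas. Mgat5 rose and Mgat4b fell. The remaining 8 genes did not pass the test, and 20% of the 10 genes were called against 33.4% of all tested genes (17.2% higher and 16.2% lower). No member also passed the fold threshold of the study, against 1.65% of all genes. The median log2 fold change was 0.05 over the 10 genes and −0.02 over all. This comparison uses the same vehicle-treated mice as the first, so a chance deviation of those mice enters both with opposite sign.

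Mgat5 was at 12.1, 9.18 and 9.54 CPM under vehicle and at 24.7, 27.0 and 32.1 CPM under TD139. Every TD139-treated mouse was above every other mouse of the study, naïve mice included. The rise over vehicle was 2.72-fold, or 1.44 on the log2 scale (SE 0.31, adjusted p = 0.0100). It was called in each of the 9 fits that left out 1 mouse, with a log2 fold change of 1.33 to 1.58 and an adjusted p of at most 0.0444. Mgat5 lies at 1:127205015-127488336 on GRCm38, and its 3′ end overlaps Tmem163 on the opposite strand. Tmem163 was at 23.9, 19.9 and 25.0 CPM under vehicle and 22.1, 19.0 and 18.8 CPM under TD139, ranges that overlap. The library kit keeps the strand, but whether the counting used it is not given in the sources used here, so reads of the shared stretch cannot be told apart.

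Mgat4b went the other way. From 40.6, 40.0 and 45.7 CPM under vehicle it fell to 29.0, 24.0 and 29.5 CPM under TD139, without overlap. The level was 1.53-fold lower, with a log2 fold change of −0.61 (SE 0.12, adjusted p = 0.00652), and was called in all 9 fits without 1 mouse (adjusted p of at most 0.0372). After correction for transcript length and GC content, described below, the difference was −0.24 (SE 0.10, adjusted p = 0.0892) and no longer passed.
Its paralogue Mgat4a was at 25.6, 22.7 and 22.5 CPM under vehicle and 31.8, 28.9 and 26.4 CPM under TD139. These ranges did not overlap, at 0.30 on the log2 scale (SE 0.11, adjusted p = 0.0607).

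The genes that were lower after light lay higher under TD139, short of the threshold in the fit of all 9 mice. B4galt1 was at 80.9, 109 and 105 CPM in TD139-treated mice, of which mouse 1 lay within the vehicle range (log2 fold change 0.40, SE 0.14, adjusted p = 0.0513). This call turned on the settings, since B4galt1 passed in 6 of 10 alternatives, DESeq2 and limma among them (adjusted p of 0.00579 to 0.0473 in the 6 and up to 0.0846 over all 10). It also passed when naïve mouse 1 or 3, vehicle-treated mouse 2 or TD139-treated mouse 1 was left out (adjusted p of 0.0112 to 0.0487). Mgat1 was at 161, 208 and 187 CPM, with TD139-treated mouse 1 again within the vehicle range (0.23, SE 0.10, adjusted p = 0.0961). It passed without that mouse (adjusted p = 0.0215) and after the length and GC correction (0.47, SE 0.12, adjusted p = 0.0213). The correction also moved the median log2 fold change over all tested genes, from −0.02 to 0.07.
Man2a1 was at 6.86, 6.78 and 6.16 CPM and overlapped with the vehicle-treated mice (0.07, SE 0.17, adjusted p = 0.783). By contrast, Man2a2 was at 831, 1035 and 1048 CPM, above all vehicle-treated mice, and rose by 0.69 on the log2 scale (SE 0.11, adjusted p = 0.00567).
For St6gal1, 12.9, 10.8 and 10.6 CPM were measured, each below the vehicle-treated mice (−0.32, SE 0.16, adjusted p = 0.135). Mgat2 (27.2 to 32.1 CPM), Mgat3 (78.7 to 85.2 CPM) and Mgat5b (25.6 to 29.8 CPM) overlapped with vehicle, at log2 fold changes of 0.04, 0.02 and −0.19. The groups did not overlap for 4 of the 10 genes, against 51.5% of all tested genes.

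Cell type markers moved here too. Rod markers were higher for 4 of 8, with a summed level of 57880 to 71851 CPM under TD139. All 5 reactive glia markers were lower (286 to 656 CPM), as were 8 of 11 microglia and macrophage markers (46.7 to 182 CPM), 2 of 6 Müller glia markers (4960 to 6484 CPM), 1 of 6 endothelial and 2 of 6 RPE markers. Of 6 ON bipolar markers, 3 were higher and 2 lower. The share of reads outside genes was 21.3 to 22.8% in TD139-treated, 16.5 to 19.4% in vehicle-treated and 19.1 to 19.9% in naïve mice, so it was highest in the group in which Mgat5 was highest. The part of these differences in the values of Mgat5 and Mgat4b was not tested.

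The third comparison, TD139-treated against naïve mice, sets light-exposed retinas given the inhibitor beside naïve ones. Man2a1 and Mgat4a were higher, and no member was lower. The 2 called genes are 20% of the 10, against 5.1% of all tested genes (2.72% higher and 2.38% lower), and none also passed the fold threshold of the study (0.0263% of all genes). This comparison shares the naïve mice with the first and the TD139-treated mice with the second.
Man2a1 was at 3.67 to 3.80 CPM in naïve and at 6.16 to 6.86 CPM in TD139-treated mice, which did not overlap. It was 1.76-fold higher, or 0.82 on the log2 scale (SE 0.18, adjusted p = 0.0420). Mgat4a was at 19.6 to 20.7 CPM in naïve and at 26.4 to 31.8 CPM in TD139-treated mice, and was 1.45-fold higher, or by 0.54 (SE 0.11, adjusted p = 0.0420).
Neither gene passed when naïve mouse 1 or 2, mouse 2 of the vehicle group or TD139-treated mouse 2 or 3 was left out. In each of these fits 0 genes of the whole table were called, against 775 with all mice. Adjusted p was then 0.0542 to 0.163 for Man2a1 and 0.0538 to 0.163 for Mgat4a. With the length and GC correction the differences were 0.46 (SE 0.18, adjusted p = 0.295) and 0.12 (SE 0.13, adjusted p = 0.755), and no gene of the whole table was then called. Both calls were also lost with only the 2 groups compared, with a replicate block or in run 1 alone (adjusted p of 0.0560 to 0.0725). The whole table then held 1, 0 and 620 called genes. In run 2 alone the call of Man2a1 was lost (adjusted p = 0.0609).
Mgat5 differed by 1.22 on the log2 scale (SE 0.31, adjusted p = 0.0518), the largest difference of the 10 genes, with no overlap between groups. It passed without naïve mouse 3 (adjusted p = 0.0179). The other 7 genes overlapped between naïve and TD139-treated mice, with log2 fold changes between −0.25 (Mgat4b) and 0.15 (Mgat3). Mgat1 and B4galt1 differed by −0.15 (SE 0.10, adjusted p = 0.370) and −0.19 (SE 0.14, adjusted p = 0.401). Groups without overlap were found for 3 of the 10 genes, against 32.2% of all tested genes.

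Transcript length moved with these values. The 3 members with the longest transcripts, Mgat5 (8436 bases), Mgat4a (7251 bases) and Man2a1 (6991 bases), had the 3 highest log2 fold changes between TD139-treated and naïve mice, and Mgat4b, with the shortest (2429 bases), had the lowest. The correction fitted, in each mouse, a smooth curve of the counts on length and GC content and removed it. Mgat5 was called against vehicle also after it (1.09, SE 0.23, adjusted p = 0.0136), while the log2 fold change of Mgat4a turned from 0.30 to −0.11 (SE 0.13, adjusted p = 0.560). For vehicle-treated against naïve mice, Mgat1 (−0.50, adjusted p = 0.0185), B4galt1 (−0.65, adjusted p = 0.0137) and Man2a1 (0.73, adjusted p = 0.0217) were called with the correction as without it. The correction also moved the median log2 fold change over all tested genes, from −0.00 to −0.10 in that comparison. The median moved from −0.02 to 0.07 for TD139 against vehicle and from −0.00 to −0.01 for TD139 against naïve mice. Corrected differences are to be read against these medians.

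**Figure D3:**
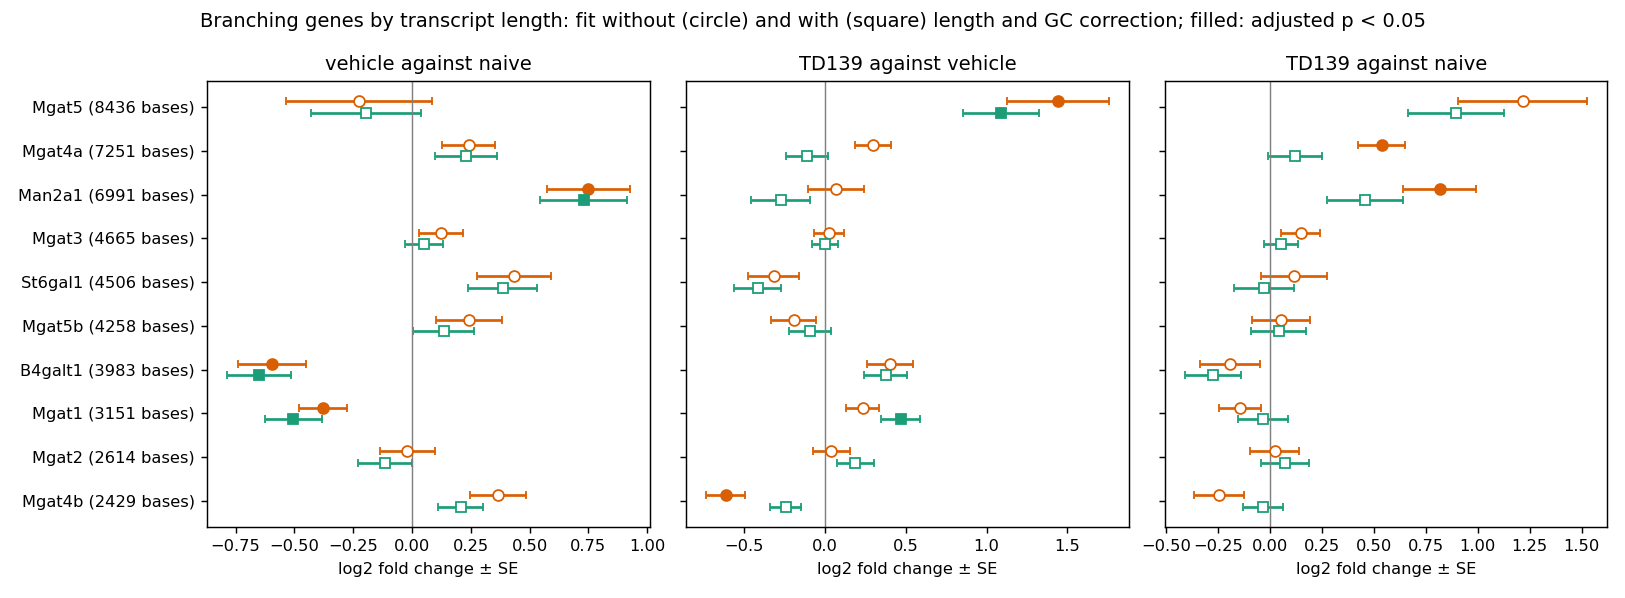
Log2 fold change ± standard error (x axis) of the 10 genes (y axis, ordered from the longest to the shortest transcript) without correction (orange circles) and with the length and GC correction (green squares); filled symbols have an adjusted p under 0.05. Between TD139-treated and naïve mice the corrected values of Mgat4a (0.12) and Man2a1 (0.46) lie closer to 0 than the uncorrected ones (0.54 and 0.82).

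The balance between members was then taken within each mouse, as ratios of read counts, which do not depend on the scaling of libraries but do carry the trend with transcript length. The difference after the length and GC correction, chosen after the data were seen, is therefore given beside each. With 3 mice against 3, the exact two-sided permutation test cannot go below p = 0.1, so none of the 15 tests could pass 0.05, and the smallest adjusted p was 0.167. The ratio of Mgat5 to Mgat3, the branching against the bisecting gene, was 0.0885, 0.175 and 0.209 in naïve, 0.147, 0.118 and 0.115 under vehicle and 0.314, 0.323 and 0.376 under TD139. The TD139-treated mice were above all others. The difference from vehicle was 1.42 on the log2 scale (SE 0.14, exact permutation p = 0.1), and 1.09 with the correction.
Mgat4b to Mgat4a, the pair that starts the same branch, was 1.59, 1.76 and 2.03 under vehicle and 0.912, 0.833 and 1.12 under TD139. It was 1.85, 1.57 and 1.49 in naïve mice. TD139-treated mice were thus below both other groups, by 0.91 on the log2 scale against vehicle (SE 0.16) and by 0.78 against naïve mice (SE 0.16), each with an exact permutation p of 0.1. This pair joins the shortest member with the second longest, and the correction left −0.13 and −0.15 of these differences.
For B4galt1 to St6gal1, galactose against the sialic acid cap, the geometric mean was 10.7 in naïve, 5.23 under vehicle and 8.59 under TD139. Vehicle-treated mice (4.72 to 6.30) were below all naïve mice (8.55 to 13.2), a log2 difference of −1.03 (SE 0.23, exact permutation p = 0.1; −1.04 corrected), and overlapped with TD139-treated mice (6.26 to 10.2).
Mgat1 to Man2a1 was 53.4, 54.4 and 56.5 in naïve mice, 22.8, 25.3 and 27.4 under vehicle and 23.5, 30.7 and 30.3 under TD139. Both light-exposed groups lay below the naïve mice, by 1.12 (SE 0.08) and 0.97 (SE 0.13) on the log2 scale, each with an exact permutation p of 0.1. With the correction these differences were −1.23 for vehicle-treated and −0.49 for TD139-treated mice. Lastly, Mgat5 to Mgat5b was 0.831 to 1.12 under TD139, above 0.257 to 0.363 under vehicle and 0.210 to 0.615 in naïve mice (exact permutation p = 0.1 against each). Its log2 difference from vehicle was 1.62, and 1.18 with the correction, and that from naïve mice 1.29 and 0.85.

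**Figure D4:**
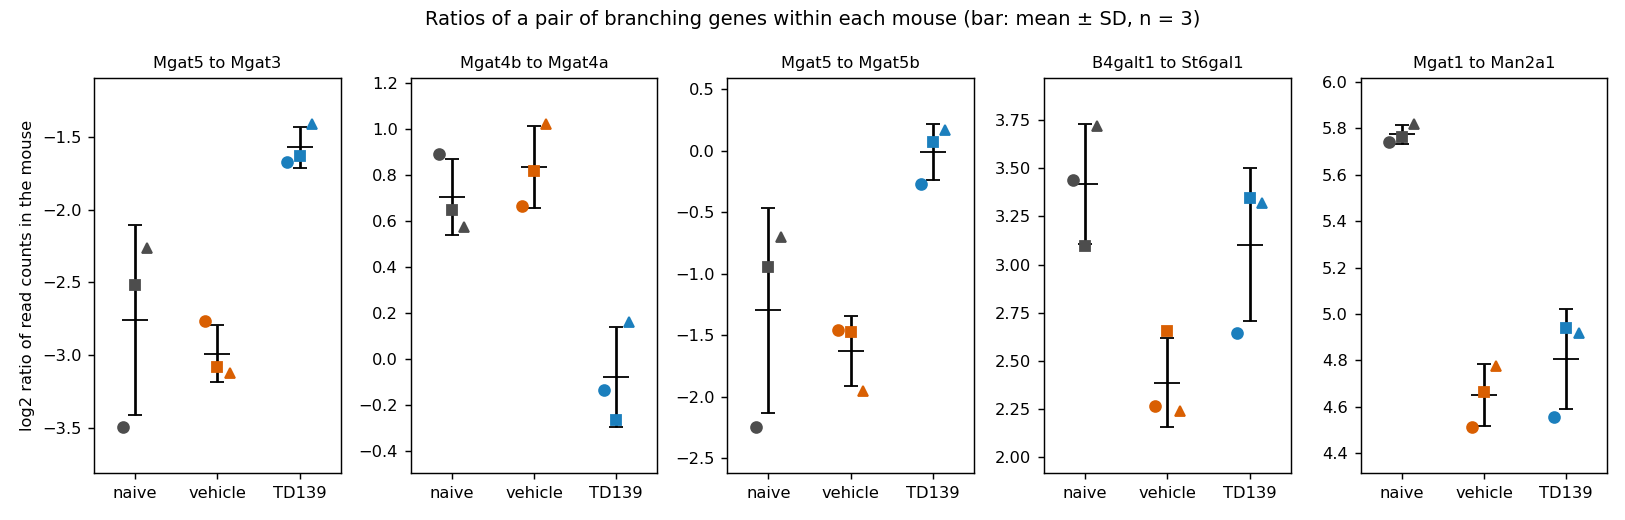
Log2 ratio of the read counts of 5 pairs of genes within each mouse (y axis, a different range in each panel) in the 3 groups; circles, squares and triangles are mice 1, 2 and 3, and bars are the mean ± SD. TD139-treated mice lie apart from both other groups for Mgat5 to Mgat3 (geometric mean 0.337), Mgat4b to Mgat4a (0.947) and Mgat5 to Mgat5b (0.993), and naïve mice lie apart for Mgat1 to Man2a1 (54.7); the plotted ratios are not corrected for length, and the correction leaves −0.13 of the −0.91 between TD139-treated and vehicle-treated mice for Mgat4b to Mgat4a.

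The members were set beside 89 other genes of glycosylation, of which 85 were tested. Most serve N-glycans, but the lists also hold genes of other glycans, among them St8sia1 and St3gal5, whose products act on glycolipids, St3gal1, which acts mainly on O-glycans, and B3gnt1 (now B4gat1), of O-mannose glycans. After light 3 were higher and 2 lower (5.88%, against 7.8% of all genes). The galactosyltransferase gene B4galt5 rose by 0.89 (SE 0.19, adjusted p = 0.0253). Uap1l1, a relative of the enzyme that makes UDP-GlcNAc, rose by 0.83 (SE 0.16, adjusted p = 0.0213) and Magt1, of the oligosaccharyltransferase, by 0.57 (SE 0.15, adjusted p = 0.0456). The sialyltransferase gene St3gal1 had a log2 fold change of −0.64 (SE 0.15, adjusted p = 0.0299) and Man2a2 that of −0.46 given above. The calls of B4galt5, Uap1l1 and St3gal1 were lost when any naïve mouse or mouse 1 or 3 of the vehicle group was left out (adjusted p of 0.0504 to 0.103). Those fits called 1 to 249 genes of the whole table, against 1185 with all mice. The call of Magt1 was lost without any mouse but TD139-treated mouse 1 (adjusted p of 0.0592 to 0.116).

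Under TD139 against vehicle 14 of the 85 were higher and 15 lower (34.1%, against 33.4% of all genes). One of the 15, B3gnt8, reached the filter on low counts through the vehicle-treated mice alone, and its call is not used. Without genes of that kind, 14 of 84 were higher and 14 lower (33.3%, against 33.2% of all genes). In the list on trimming of glucose and mannose, 5 of 13 were higher and none lower. These were Edem3 (1.02, SE 0.24), Man2a2 (0.69), the glucosyltransferases of glycoprotein folding Uggt2 (0.64, SE 0.15) and Uggt1 (0.35, SE 0.09), and Man1a2 (0.32, SE 0.10). Of 9 genes of the synthesis of UDP-GlcNAc, the donor of all branches, and of GlcNAc turnover, Gfpt1, the first and rate-limiting enzyme of that synthesis, was higher (0.86, SE 0.18). There 4 were lower. These were Uap1l1 (−1.23, SE 0.16) and the salvage kinase gene Nagk (−0.50, SE 0.15), and also a pair whose products do not make the donor, namely Renbp (−1.06, SE 0.22), whose product interconverts GlcNAc and N-acetylmannosamine, and Amdhd2 (−0.44, SE 0.15), whose product deacetylates GlcNAc-6-phosphate and so works against the synthesis.
Of the 15 other genes of galactose and poly-N-acetyllactosamine extension 1 was higher and 4 lower, and those called lower included B4galt5 (−0.75, SE 0.19) and Galt (−0.44, SE 0.14). B3gnt8, a poly-N-acetyllactosamine enzyme named after its values were seen, had 5, 4 and 3 counts in naïve, 10, 21 and 11 under vehicle and 3, 2 and 1 under TD139. As the TD139-treated mice were at the floor of 3 counts, no fold or direction is given. In the list of sialic acid and fucose caps, which is not limited to N-glycans, 5 of 23 were higher and 3 lower, with St8sia1 at 0.84 (SE 0.19), St3gal1 at 0.70 (SE 0.15) and Cmas at −0.28 (SE 0.09). St6gal2, a relative of St6gal1 also named after its values were seen, rose by 1.43 (SE 0.42) from 1.17 to 3.16 CPM on average.
In the ER list, 2 of 23 were higher (Alg13, 0.50, and Alg11, 0.48) and 3 lower (Dad1, −0.52, Alg5, −0.46, and Ddost, −0.45), each with an SE between 0.10 and 0.15. The one tested relative of the branching genes outside the 10, Mgat4c, did not pass (0.53, SE 0.23, adjusted p = 0.0948). Adjusted p-values of the genes named here as higher or lower were 0.00500 to 0.0407.

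Of these called genes, Man2a2, Uggt2, Dad1, Ddost, Gfpt1, Renbp, Uap1l1 and St3gal1 were called in each of the 9 fits without 1 mouse. Every other named gene lost its call without TD139-treated mouse 2, and all but St8sia1 also without further mice (adjusted p of up to 0.151 over these fits). Without TD139-treated mouse 2, 1626 genes of the whole table were called against vehicle, and 5072 with all mice. After the length and GC correction Edem3, Man2a2, Gfpt1, Uap1l1, Renbp, B4galt5, St3gal1, Dad1 and Alg13 were called in the same direction. Uggt1, Man1a2, Galt, Amdhd2 and Cmas then changed sign.
Against naïve mice, TD139-treated mice differed in 2 of the 85 genes (2.35%, against 5.1% of all). Fut9, a fucosyltransferase gene with a transcript of 12134 bases, was higher by 1.00 (SE 0.20, adjusted p = 0.0406), and Alg1, with one of 1755 bases, was lower at −0.42 (SE 0.09, adjusted p = 0.0420). Both calls were lost when naïve mouse 1 or 2, mouse 2 of the vehicle group or TD139-treated mouse 2 or 3 was left out (adjusted p of 0.0524 to 0.163), and after the correction. In each of these fits no gene of the whole table was called.

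**Figure D5:**
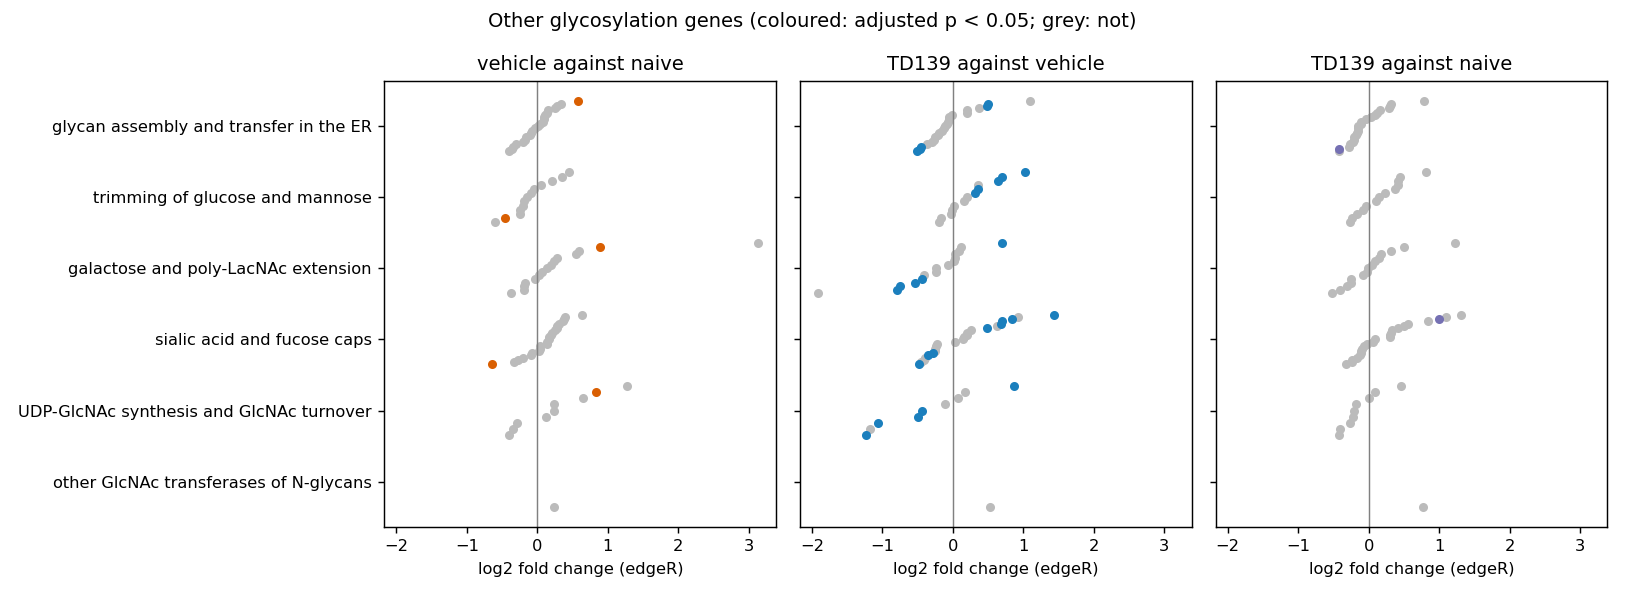
Log2 fold change (x axis) of 84 tested other glycosylation genes, without B3gnt8, in 6 lists (y axis, 1 point a gene, sorted within a list), for the 3 comparisons; coloured points have an adjusted p under 0.05. Under TD139 against vehicle the called genes of glucose and mannose trimming all lie above 0, and 4 of the 5 called genes of UDP-GlcNAc synthesis and GlcNAc turnover, with Renbp and Amdhd2 among them, lie below it. The plotted values are not corrected for length and GC content. With the correction, Edem3 (0.61) and Man2a2 (0.56) were still called. Uggt2 (0.19) was not, and Uggt1 (−0.05), Man1a2 (−0.18) and Amdhd2 (0.08) changed sign.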

How the data were processed

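Retinal poly(A) RNA of 9 mice was sequenced as single reads on 2 flow cells. The authors deposited 1 table per run of a mouse, holding whole-number counts of reads per gene symbol, made with BaseSpace RNA Express and not normalized. The submitters' processing notes name the build mm10, while the aligner settings, annotation and strand setting are not given in the sources used here. The 2 runs were added up, and each mouse counted as 1 replicate. Whether mice of a group shared a litter is not given, so p-values measure the spread between these mice. Reads outside genes and ambiguous reads (16.5 to 22.8% and 0.303 to 0.471%) were left out.

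All 3 groups were fitted together with edgeR 4.0.16 in R 4.3.3 (filterByExpr, TMM, robust quasi-likelihood F test), and p-values were adjusted by Benjamini and Hochberg over 15196 genes. The standard error is the log2 fold change divided by the square root of F. Floors of 3 counts (0.0993 to 0.115 CPM) cover counting error only. Ratios were compared by exact permutation with scipy 1.17.1. GENCODE M21 (GRCm38) gave the length and GC content for 98.4% of symbols, and RefSeq the promoters. The steps were tested on simulated data.

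The members and the gene lists were chosen with earlier results of these data known. Of each other list, every called gene was named where at most 5 were called, otherwise the 3 with the highest mean CPM, plus the gene with the highest CPM of the list, and exceptions are stated. A gene that met this rule is not reported here. The genes named by level alone were Rpn2 (179 CPM on average), B3gnt1 (72.6 CPM) and Mgat4c, none of them called in any comparison. Alternatives were DESeq2 1.42.0, limma 3.58.1 voom with quality weights, RLE factors, library size alone, no low-count filter, only the groups compared, a replicate block, single runs, a spline correction (4 degrees of freedom each) for length and GC content, and each mouse left out.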

Additional observations from a re-analysis of the deposited data

How the results depend on the processing

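With 3 mice a group, calls near the threshold changed with the settings. For vehicle-treated against naïve mice, the members called higher numbered 2 with DESeq2 or limma and 0 in either run alone, and those called lower 1 with RLE factors, library size alone, no filter, the replicate block or run 2 alone. For TD139-treated against vehicle-treated mice, 3 were higher with DESeq2 or limma, 2 without the filter, with only the groups compared, the replicate block, run 1 alone or the length and GC correction, and 2 were lower with limma and 0 with the correction. Against naïve mice 0 were higher with only the groups compared, the replicate block, run 1 alone or the correction. Leaving out 1 mouse gave 0 to 1 higher and 0 to 2 lower, 1 to 3 higher and 1 to 1 lower, and 0 to 3 higher and 0 to 0 lower for the 3 comparisons in that order. Single runs and left-out mice moved all 120 recomputed ratios by less than 1 SD (pooled over the groups compared). Leaving out 1 of 3 mice cannot move a ratio by that much, so only the single runs were tested by this limit. Of the 120 ratios, 1 changed sign (Mgat5 to Mgat3 after light, from −0.23 to 0.015 without naïve mouse 3). The length and GC correction, added for the ratios after the data were seen, moved 8 of 15 by less than 1 SD, of which Mgat4b to Mgat4a after light turned from 0.13 to −0.024. Under TD139 against vehicle, Mgat5 was called in all 10 alternatives, Mgat4b in 9, B4galt1 in 6, Mgat1 in 2, Mgat4a and St6gal1 in 1 each and the other 4 genes in 0. After light, B4galt1 was called in all 10, Man2a1 in 8, Mgat1 in 5, Mgat4b in 2 and the other 6 genes in 0. Against naïve mice, Mgat4a was called in 6, Man2a1 in 5, Mgat5 in 3 and the other 7 genes in 0.

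Of the other glycosylation genes, B3gnt8 included, after light, 7 were higher and 4 lower with DESeq2, 11 and 7 with limma, and 1 was lower with the replicate block and 12 with the correction. Under TD139 against vehicle 9 were higher with the correction. Against naïve mice 8 were higher and 4 lower with DESeq2, 22 and 14 with limma, 0 and 0 with only the groups compared, the replicate block or the correction, and 2 were lower in run 2 alone. Without 1 mouse the counts were 0 to 5 higher and 0 to 2 lower, 4 to 16 and 5 to 16, and 0 to 7 and 0 to 4.

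Signs changed as follows, and the cause was not tested. Scaling by library size alone shifted the all-gene median to −0.10 for TD139 against vehicle. There it turned Mgat2 to −0.047, Mgat3 to −0.065 and Man2a1 to −0.016, and Mgat2 to 0.075 after light. Run 1 alone gave Mgat2 0.022 after light, and run 2 alone Mgat3 −0.028 against vehicle and Mgat2 −0.0037, Mgat5b −0.0047 and St6gal1 −0.023 against naïve mice. With limma St6gal1 was −0.11 against naïve mice. The length and GC correction gave Mgat4a −0.11, Man2a1 −0.27, Amdhd2 0.079, Cmas 0.081, Galt 0.0076, Man1a2 −0.18 and Uggt1 −0.049 against vehicle and St6gal1 −0.029 against naïve mice. Leaving out 1 mouse took Mgat2 from −0.088 to 0.063 and Mgat5 from −0.54 to 0.13 after light, Mgat2 from −0.028 to 0.11, Mgat3 from −0.0045 to 0.055 and Man2a1 from −0.038 to 0.13 against vehicle, and Mgat2 from −0.037 to 0.10 against naïve mice. Of all called genes, 63% were higher after light (77.6% with library size alone, 31.8% with the correction) and 51.6% against vehicle (39% and 64.4%); against naïve mice the share was 53.3% (65.4% with library size alone).

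Replicate numbers named the mice but did not pair them, since same-numbered mice correlated at −0.26 to 0.28 in their deviations from the group means, above 0.1 in 2 of 9 pairs. The replicate block gave 4772 called genes against 5072 for TD139 against vehicle, 900 against 1185 after light and 0 against 775 for TD139 against naïve mice. Of the members, it kept the calls of B4galt1 and Man2a1 after light and of Mgat5 and Mgat4b against vehicle, and added B4galt1 there (adjusted p = 0.0369). The calls of Mgat1 after light (adjusted p = 0.0518) and of Mgat4a and Man2a1 against naïve mice (0.0725 each) were lost with it.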
